A study of Mus musculus with 6 samples.

Results

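The 8 genes of caspase-dependent cell death, Fas, Fasl, Casp8, Cflar, Apaf1, Casp9, Casp6 and Xiap, were compared between WT and SIRPα KO ILC2s. They were chosen by name, as caspases and as genes of the Fas pathway, the apoptosome and XIAP, with earlier results of these data known. All 8 were among the 17831 genes of the count table, and 7 of them, all but Fasl, were among the 13623 genes that passed the filter on low counts and could be tested. Apaf1 rose 2.17-fold in SIRPα KO ILC2s and Casp6 fell 1.84-fold, while the intervals of Fas, Casp8, Cflar, Casp9 and Xiap included no change. Once transcript length and GC content were corrected for, the rise of Apaf1 was 1.57-fold and the fall of Casp6 2.19-fold. Both calls rested on all 3 SIRPα KO libraries being in the fit. Without any one of them, calls over all genes also fell, from 1600 to 16 or 17. The calls of Apaf1 and Casp6 were also lost when libraries that share a code in the labels were summed.

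ILC2s, or group 2 innate lymphoid cells, are tissue lymphocytes without antigen receptors that release type 2 cytokines after alarm signals such as IL-33. WT mice, given by the labels as CB57BL/6, and SIRPα KO mice, which carry the SIRPalphatm1Ynliu/J allele, were aged 6 to 8 weeks and matched for age and sex. Mice of both genotypes received 0.5 μg of rmIL-33 by the intranasal route for 3 days, and lung ILC2s were sorted on day 4 and kept in culture with rmIL-2 and rmIL-7 before RNA was taken. There were 3 libraries per genotype, each made from 10 pg of RNA. The culture time is given as 18 h in one place and as 24 h in another, and an untreated group was not analysed here. The allele is carried in the germ line and is not limited to ILC2s. Whether animals were pooled for a library is not given in the sources used here.

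Caspases are proteases that lie inactive in the cell until a complex brings them together or another caspase cuts them. In the extrinsic route, Fas ligand clusters the receptor Fas, which recruits caspase-8, and the protein of Cflar, c-FLIP, sits in the same complex and holds caspase-8 back. In the intrinsic route, cytochrome c from the mitochondria makes APAF1 assemble into the apoptosome, which activates caspase-9. Both routes end in executioner caspases, some of which XIAP can block, and lymphocytes use such routes to end a response.

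Depth ran from 13980499 to 19051507 reads on genes per library. Sirpa itself had 149, 96 and 73 reads in WT replicates 1 to 3 and 48, 85 and 28 reads in SIRPα KO replicates 1 to 3, so that the labelled groups did not overlap after scaling, at a log2 fold change of -1.12 (edgeR, adjusted p = 0.115). Reads on Sirpa were present in every SIRPα KO library, and whether they lie in the altered part of the gene cannot be read from gene counts. Codes in the labels tie WT replicate 1 (37) to WT replicate 2 (37V1) and SIRPα KO replicate 2 (44) to replicate 3 (44V1), and the series text speaks of duplicates. If libraries of one code came from one sample, each group held 2 samples, and the adjusted p values over 3 libraries are too small. All 15 ILC2 markers passed the filter on low counts, with summed levels of 15600 to 16700 CPM (reads scaled to library size) for WT and 21400 to 21900 for SIRPα KO. Il5 made up most of that sum (8450 to 9710 against 12600 to 13200 CPM), and of the 15 markers Il5, Il2ra and Ptprc were called higher and Thy1 and Id2 lower. Markers of other lymphocytes were low and lower still in SIRPα KO, at 221 to 289 against 133 to 142 CPM for 9 T cell genes, 112 to 209 against 16.9 to 35.7 CPM for 5 B cell genes and 29.7 to 59.5 against 7.73 to 9.3 CPM for 9 genes of NK cells and cytotoxic lymphocytes. Of these, 4 T cell, 4 B cell and 5 NK cell genes were called lower, and Klrd1 had no read in any SIRPα KO library. Trbc1 and Trbc2 made up most of the T cell sum. Igkc made up most of the B cell sum except in SIRPα KO replicate 1, where it had 1.09 CPM. Summed levels of the 9 myeloid genes (50.6 to 138 against 90.1 to 136 CPM) and of 4 epithelial and stromal genes (60.6 to 85.9 against 46.8 to 107 CPM) overlapped between groups, although Itgam and Pecam1 were called higher and Epcam lower. Summed levels of 5 mast cell and basophil genes were 67.1 to 124 against 165 to 190 CPM, most of it Kit (46.3 to 117 against 164 to 179 CPM), while Mcpt8 was lower in each SIRPα KO library, and none of the 5 was called. The part of other cells in the values below was not tested.

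Promoter sequences are shown for Apaf1 and Casp6, since these were the members that passed the test. They come from RefSeq on GRCm38.p6 and run from 250 to 51 bases before the annotated start, read along the gene's strand. Capitals mark GC boxes, the letters GGGCGG or, on the other strand, CCGCCC.
Apaf1, chr10:91082794-91082993, minus strand: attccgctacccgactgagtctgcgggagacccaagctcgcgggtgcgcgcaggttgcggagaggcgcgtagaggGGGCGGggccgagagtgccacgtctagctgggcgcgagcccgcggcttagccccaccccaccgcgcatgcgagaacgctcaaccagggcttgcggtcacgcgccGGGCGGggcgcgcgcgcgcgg
Casp6, chr3:129901165-129901364, plus strand: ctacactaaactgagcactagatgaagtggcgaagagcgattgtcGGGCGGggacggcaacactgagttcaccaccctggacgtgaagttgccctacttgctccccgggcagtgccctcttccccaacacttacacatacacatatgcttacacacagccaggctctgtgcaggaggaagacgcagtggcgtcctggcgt
The stretch shown held 2 GC boxes for Apaf1 and 1 for Casp6. In the whole 300-base window, which reaches 50 bases past the start, Apaf1 and Casp6 held 3 each, Casp9 held 4, Fas 2, Fasl 1 and the Xiap window of highest GC content 2, while those of Casp8 and Cflar held none. A GC box was present in 35.9% of 32544 promoters of the same length. The promoter of Apaf1 had a GC content of 74.7% and that of Casp6 one of 62.0%, against 42.0% for Casp8 and 45.0% for Cflar. TATAAA, found in 13.6% of promoters, was in neither of the promoters shown, and neither were CCAAT (37.4% of promoters) and the ETS motif CCGGAAG (8.9%), both strands searched. These matches describe letters only, and promoter activity was not measured.

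Across the members, 2 of 7 tested genes (28.6%) had an adjusted p under 0.05 in edgeR's quasi-likelihood test, against 11.7% of all genes tested. Of these, 1 was higher in SIRPα KO, against 5.94% of all genes, and 1 was lower, against 5.81%. The WT and SIRPα KO libraries did not overlap for the same 2 members, Apaf1 and Casp6 (28.6%), against 42.8% of all genes. The median log2 fold change was 0.017 over the 7 members and -0.025 over all genes tested. With so few members, these shares describe the members and set them apart from no other genes.

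**Figure D1:**
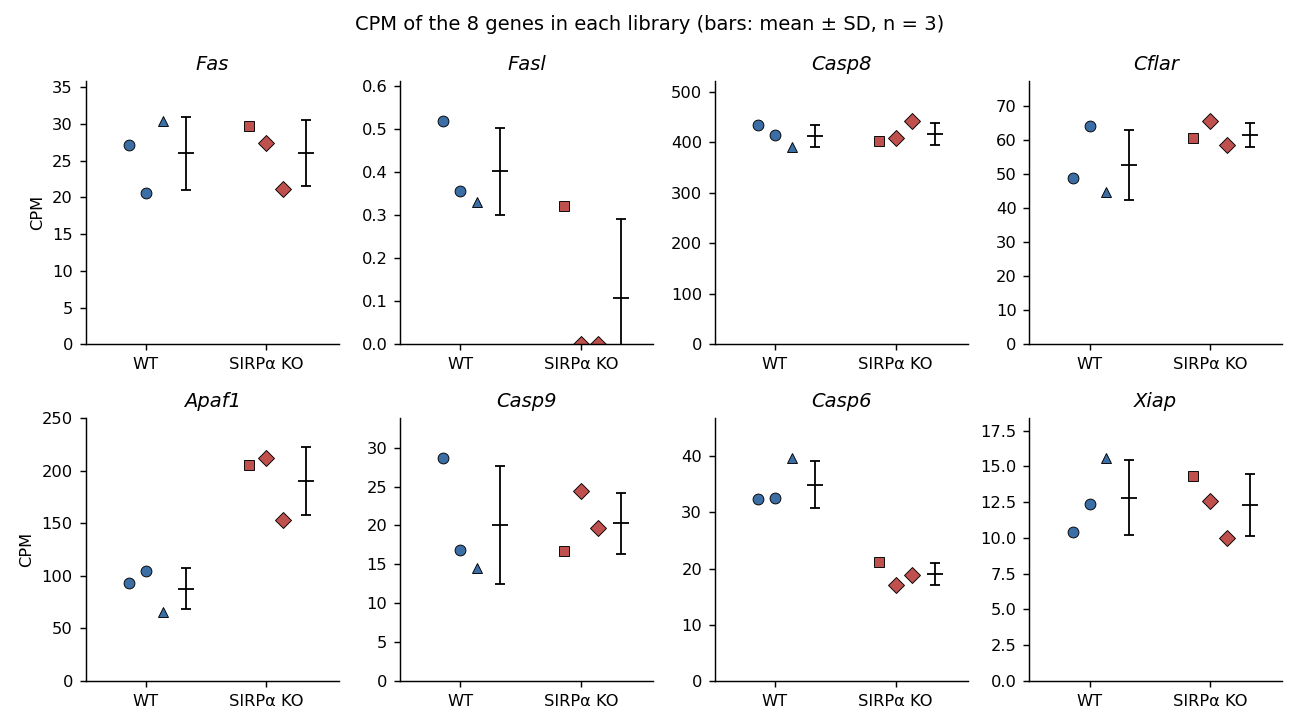
Levels of the 8 genes in CPM (y axis, each panel with its own scale from 0) in each library, with WT in blue and SIRPα KO in red, libraries of one code drawn with one symbol (circles for 37 and 37V1, diamonds for 44 and 44V1), and bars giving the mean ± SD (n = 3). Apaf1 lies higher and Casp6 lower in all 3 SIRPα KO libraries than in any WT library, Fasl is at 0 in 2 libraries, and the other genes overlap.

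Fas encodes the death receptor itself. It had 471, 290 and 459 reads in WT replicates 1 to 3, or 27.1, 20.6 and 30.4 CPM, and 467, 523 and 341 reads in SIRPα KO replicates 1 to 3, or 29.8, 27.4 and 21.1 CPM. The lowest library of each group stood at nearly the same level, and the groups overlapped throughout. The WT mean was 26.0 ± 4.97 CPM and the SIRPα KO mean 26.1 ± 4.49 CPM (SD, n = 3). The log2 fold change was 0.006 with a 95% interval of -0.49 to 0.50 and an adjusted p of 0.989 in edgeR's quasi-likelihood test, an interval that still holds moderate changes in either direction.

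Fasl encodes Fas ligand, which is known from activated T cells and NK cells. It was close to absent from these libraries, with 9, 5 and 5 reads in WT replicates 1 to 3 and 5, 0 and 0 reads in SIRPα KO replicates 1 to 3. Both libraries at 0 carry the code 44. A count of 0 allows up to 3 reads, which is 0.157 CPM in SIRPα KO replicate 2 and 0.186 CPM in replicate 3, whereas SIRPα KO replicate 1 stood at 0.320 CPM, next to the 0.331 CPM of WT replicate 3. In sum there were 19 reads in WT and 5 in SIRPα KO, the gene failed the filter on low counts, and no fold change is given. The summed NK cell and cytotoxic lymphocyte markers, which were lower in every SIRPα KO library (29.7 to 59.5 against 7.73 to 9.3 CPM), moved in the same direction as these few reads, and their part in them was not tested. Fewer cells of a type and less RNA per cell cannot be told apart in bulk samples.

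Casp8 encodes the initiator caspase that Fas recruits. It was by far the most abundant member, with 7543, 5816 and 5891 reads in WT replicates 1 to 3 (434, 414 and 390 CPM) and 6294, 7777 and 7126 reads in SIRPα KO replicates 1 to 3 (402, 408 and 442 CPM). The 6 libraries lay close together with no order by genotype. Its log2 fold change of 0.017 had the narrowest 95% interval of the members, from -0.21 to 0.24 (adjusted p = 0.917 in edgeR's quasi-likelihood test). The transcript Gm37760 lies within Casp8 on the same strand and had 25 to 92 reads, few beside those of Casp8.

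Cflar, the inhibitor of caspase-8, lies beside Casp8 on chromosome 1. It had 849, 903 and 674 reads in WT replicates 1 to 3 (48.8, 64.2 and 44.6 CPM) and 947, 1248 and 944 in SIRPα KO replicates 1 to 3 (60.5, 65.5 and 58.5 CPM). WT replicate 2 stood among the SIRPα KO libraries, and the other WT libraries lay below them. The log2 fold change was 0.23 with a 95% interval of -0.16 to 0.62 and an adjusted p of 0.382 in edgeR's quasi-likelihood test. The sign of this value did not hold after the correction for transcript length described below. A stretch of 598 bases, 9.1% of its longest transcript, is identical in Gm9845, and how reads on it were divided is not given in the sources used here.

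Apaf1 encodes the scaffold of the apoptosome, on chromosome 10 from 90989311 to 91082770 of mm10. It had 1610, 1458 and 996 reads in WT replicates 1 to 3, or 92.6, 104 and 65.9 CPM. In SIRPα KO replicates 1 to 3 it had 3203, 4043 and 2464 reads, or 205, 212 and 153 CPM. The lowest SIRPα KO library was above the highest WT library, and the smallest value of each group came from its replicate 3. The WT mean was 87.4 ± 19.4 CPM and the SIRPα KO mean 190 ± 32.3 CPM (SD, n = 3). Apaf1 rose by 1.12 on the log2 scale (standard error 0.20, 95% interval 0.66 to 1.58), with an adjusted p of 0.0189 in edgeR's quasi-likelihood test. The adjusted p was 0.112, 0.112 and 0.0705 without SIRPα KO replicate 1, 2 or 3 and 0.13 with libraries of one code summed, at log2 fold changes of 1.04 to 1.26.

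Casp9 encodes the initiator caspase that the apoptosome activates. It had 499, 237 and 219 reads in WT replicates 1 to 3 (28.7, 16.9 and 14.5 CPM) and 262, 467 and 318 in SIRPα KO replicates 1 to 3 (16.7, 24.5 and 19.7 CPM). WT replicate 1 was the highest of all 6 libraries and WT replicate 3 the lowest, so that the SIRPα KO libraries lay inside the WT range. The log2 fold change was 0.021 with a 95% interval of -0.65 to 0.69, the widest of the members, and an adjusted p of 0.969 in edgeR's quasi-likelihood test. It was 0.38 without WT replicate 1 and -0.16 without WT replicate 3, neither past the threshold. WT replicates 1 and 2, of one code, differed 1.70-fold in Casp9, the largest difference within a code among the 7 members.

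Casp6 encodes an executioner caspase that cuts lamin A among other substrates, on chromosome 3 from 129901425 to 129914103 of mm10. It had 564, 459 and 600 reads in WT replicates 1 to 3, or 32.4, 32.6 and 39.7 CPM. In SIRPα KO replicates 1 to 3 it had 330, 326 and 305 reads, or 21.1, 17.1 and 18.9 CPM. All SIRPα KO libraries lay below all WT libraries, and the spread within each group was small beside the gap. The WT mean was 34.9 ± 4.15 CPM and the SIRPα KO mean 19.0 ± 2.0 CPM (SD, n = 3). Casp6 fell by 0.88 (log2; standard error 0.18, 95% interval of the log2 fold change -1.28 to -0.47), with an adjusted p of 0.0251 in edgeR's quasi-likelihood test. The adjusted p was 0.113, 0.136 and 0.110 without SIRPα KO replicate 1, 2 or 3 and 0.14 with libraries of one code summed.

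Xiap encodes an inhibitor that binds caspases directly and lies on the X chromosome. It was the lowest member apart from Fasl, with 180, 174 and 235 reads in WT replicates 1 to 3 (10.4, 12.4 and 15.6 CPM) and 223, 241 and 162 in SIRPα KO replicates 1 to 3 (14.3, 12.6 and 10.0 CPM). The ranges of both groups were nearly the same. The log2 fold change was -0.051 with a 95% interval of -0.61 to 0.51 and an adjusted p of 0.904 in edgeR's quasi-likelihood test. It was 0.12 without WT replicate 3, and moved to -0.69 with the length correction described below.

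Fold changes followed transcript length in these libraries. Over genes whose mean log2 CPM was 3 or more, the decile medians ran on the log2 scale from -0.55 for the shortest transcripts to 0.47 for the longest. The longest Apaf1 transcript has 6577 bases, which places it in the ninth decile with a median of 0.37, and that of Casp6 has 3914 bases, in the seventh decile with a median of 0.21. Casp6 thus changed against the direction of its length class and Apaf1 with it. Once length and GC content were corrected for, Apaf1 had a log2 fold change of 0.65 (adjusted p = 0.0273 in edgeR's quasi-likelihood test, a rise of 1.57-fold) and Casp6 one of -1.13 (adjusted p = 0.0221, a fall of 2.19-fold). These remained the 2 members called (28.6%), against 8.82% of all genes in the corrected fit. Cflar, with 6572 bases, moved to -0.28 (95% interval -0.60 to 0.027, adjusted p = 0.218 in edgeR), opposite in sign to its uncorrected value. Xiap has the longest transcript of the members, at 6834 bases, and moved to -0.69 (95% interval -1.43 to 0.043, adjusted p = 0.207 in edgeR). Corrected values of Fas (0.094), Casp8 (-0.082) and Casp9 (-0.054) stayed near 0.

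**Figure D2:**
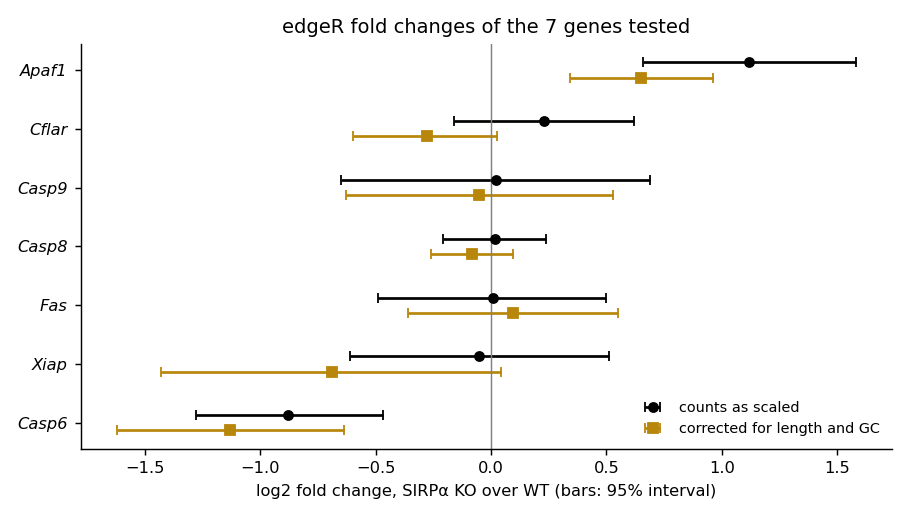
Log2 fold changes of SIRPα KO over WT (x axis) with 95% intervals for the 7 tested genes, from counts as scaled (black circles) and once length and GC content were corrected for (ochre squares). Both intervals of Apaf1 lie above 0 and both of Casp6 below it, and the 5 other genes have intervals that include 0 in both fits.

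Divided by transcript length, levels could be set in order among the members. Casp8 led in both genotypes, at 160 ± 8.46 in WT and 161 ± 8.30 in SIRPα KO (CPM per kb, SD, n = 3). In WT it was followed by Fas (16.0 ± 3.06), Apaf1 (13.3 ± 2.95), Casp6 (8.92 ± 1.06), Cflar (8.0 ± 1.57), Casp9 (5.14 ± 1.95) and Xiap (1.87 ± 0.384 CPM per kb). Each neighbour in the run from Fas to Casp9 overlapped the next across the WT libraries, so only Casp8 at the top, Xiap and Fasl were separate from their neighbours. In SIRPα KO the order was Casp8, Apaf1 (28.9 ± 4.91), Fas (16.1 ± 2.76), Cflar (9.36 ± 0.544), Casp9 (5.22 ± 1.0), Casp6 (4.86 ± 0.510) and Xiap (1.80 ± 0.310 CPM per kb). There Apaf1 stood above Fas in every library comparison, and Casp6 overlapped Casp9 alone. These levels were not corrected for the trend of fold changes with transcript length. With that correction the log2 fold change of Apaf1 was 0.65 rather than 1.12, and that of Fas 0.094 rather than 0.006. The part of the trend in the change of order was not tested. Fasl was last in both genotypes.

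**Figure D3:**
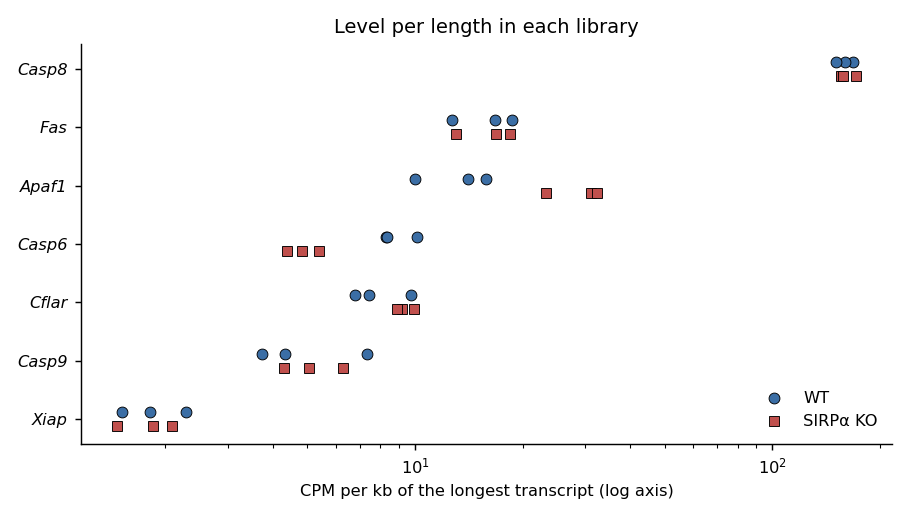
Level per length of the 7 tested genes in each library, in CPM per kb of the longest transcript (x axis, log scale), for WT (blue circles) and SIRPα KO (red squares). Casp8 lies at 151 to 171 CPM per kb in all 6 libraries, Apaf1 and Casp6 are split by genotype, and Xiap is lowest. Levels are not corrected for the trend of fold changes with transcript length.

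Ratios of 2 members within one library do not depend on how libraries are scaled, and 4 were compared. They are not free of the trend with transcript length. Apaf1 reads were 3.22, 6.14 and 4.54 times those of Casp9, its partner in the apoptosome, in WT replicates 1 to 3 and 12.2, 8.65 and 7.74 times in SIRPα KO replicates 1 to 3. The groups did not overlap, and the mean ratio was 2.09-fold higher in SIRPα KO (exact two-sided permutation test, p = 0.1, the smallest that 3 against 3 can give, and 0.2 after adjustment over the 4 ratios). Once length and GC content were corrected for, its difference was 0.67 on the log2 scale, against 1.06 before. Cflar reads were 0.113, 0.155 and 0.114 of those of Casp8 in WT and 0.151, 0.161 and 0.133 in SIRPα KO. WT replicate 2 lay within the SIRPα KO range, with a difference of 0.23 on the log2 scale (exact permutation p = 0.3, adjusted 0.4). Xiap over Casp9 differed by -0.11 on the log2 scale (exact permutation p = 0.9, adjusted 0.9), with WT libraries spread from 0.361 to 1.07. With the correction for length and GC content, the difference of Xiap over Casp9 was -0.60 (exact permutation p = 0.2). That of Cflar over Casp8 changed sign, to -0.20 (exact permutation p = 0.3). The ratio of Fas to Fasl had Fasl at or near the floor in every library, and its value is not reported here. Its exact permutation p of 0.1 counts among the 4 in the adjustment. Without it, the adjusted p of Apaf1 over Casp9 would be larger than 0.2.

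**Figure D4:**
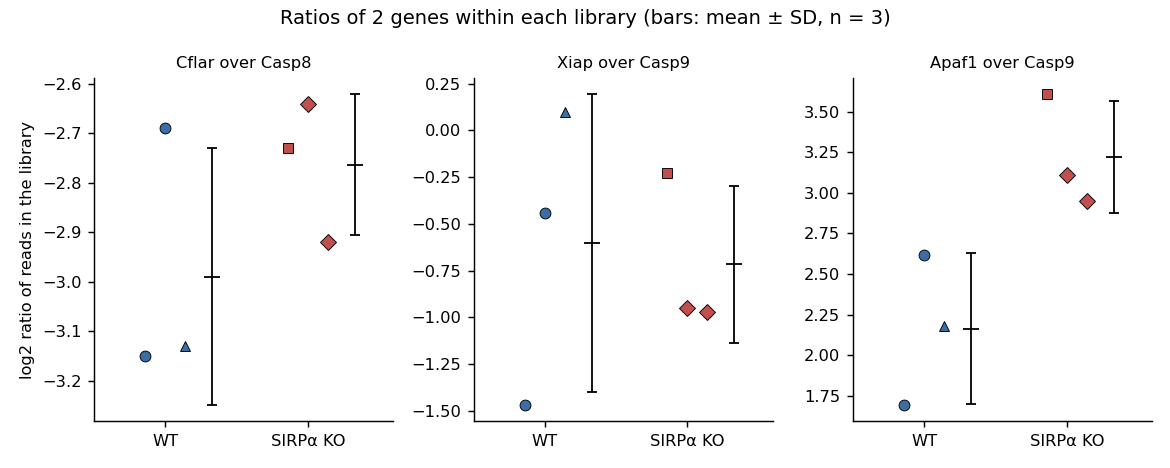
Log2 ratio of the reads of 2 genes within each library (y axis, each panel with its own range) for Cflar over Casp8, Xiap over Casp9 and Apaf1 over Casp9, by genotype, with the mean ± SD (n = 3) and one symbol per code. Apaf1 over Casp9 is split by genotype, at means of 2.16 and 3.22, and the other ratios overlap.

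The other genes of these routes were read from a list of 47, of which 46 were in the table and tested. Of these, 2 were called higher and 2 lower in SIRPα KO (8.70%, against 11.7% of all genes), 42 did not pass the threshold, and the median log2 fold change was -0.015. For 23 of them (50%), no SIRPα KO library overlapped the WT range, against 42.8% of all genes. Among 15 genes of death receptor signalling, Cyld, a deubiquitinase that acts on RIPK1 in receptor complexes, rose by 0.95 on the log2 scale (adjusted p = 0.0353 in edgeR's quasi-likelihood test) and the other 14 did not pass. Its corrected value was 0.41 with an adjusted p of 0.0694, past no threshold. Fadd, the adaptor between Fas and caspase-8, had log2 fold change -0.40 (adjusted p = 0.214 in edgeR), with all SIRPα KO libraries (9.55 to 10.7 CPM) below the WT libraries (11.4 to 14.5 CPM). Ripk1, a kinase of the same complexes, had 0.38 (adjusted p = 0.186) and -0.10 after correction.

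Of 11 apoptosome cofactors and inhibitors of apoptosis, Birc5 was called. It encodes survivin, which is best known for its part in cell division, and decreased by 0.75 in log2 units (adjusted p = 0.0220 in edgeR's quasi-likelihood test), from 167, 170 and 224 CPM (WT) to 106, 114 and 114 CPM (SIRPα KO). Cycs, the gene of somatic cytochrome c, which triggers the assembly of APAF1, had log2 fold change -0.23 (adjusted p = 0.180 in edgeR). Its corrected value was -0.53 (adjusted p = 0.0558 in edgeR). Diablo, whose protein releases caspases from XIAP, had -0.11 (adjusted p = 0.621), and -0.19 after correction. Birc2 and Birc3, ubiquitin ligases that hold back death receptor signalling, had 0.49 (adjusted p = 0.127) and 0.56 (adjusted p = 0.0507). After correction they had 0.22 and 0.41. Their groups did not overlap, as was true of 9 of these 11 genes (81.8%, against 42.8% of all genes). The 1 called gene of 11 is 9.09%, against 11.7% of all genes.

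None of the 5 other caspases passed the threshold in edgeR's quasi-likelihood test (0 at an unadjusted p under 0.05, and 0 with DESeq2), and their groups overlapped. Over all genes tested 11.7% were called and 42.8% did not overlap, and with 5 genes a count of 0 sets them apart from no others. Among 15 caspase substrates and executors, Sptan1, which encodes the cytoskeletal alpha-II spectrin, rose by 0.88 on the log2 scale (adjusted p = 0.0266 in edgeR's quasi-likelihood test) and Lmna, which encodes lamin A, a substrate of caspase-6, fell by 0.94 (adjusted p = 0.00717). Lmna stood at 490, 477 and 530 CPM in WT, against 274, 268 and 238 CPM in SIRPα KO. Birc5, Sptan1 and Lmna were also called after the correction. All 4 genes lost the call without any one SIRPα KO library and with libraries of one code summed, and Cyld (adjusted p = 0.0556) and Sptan1 (0.0543) also lost it without WT replicate 1. Log2 fold changes in those fits were of like size, at 0.89 to 1.12 for Cyld, 0.84 to 1.0 for Sptan1, -0.83 to -0.71 for Birc5 and -0.97 to -0.87 for Lmna.

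**Figure D5:**
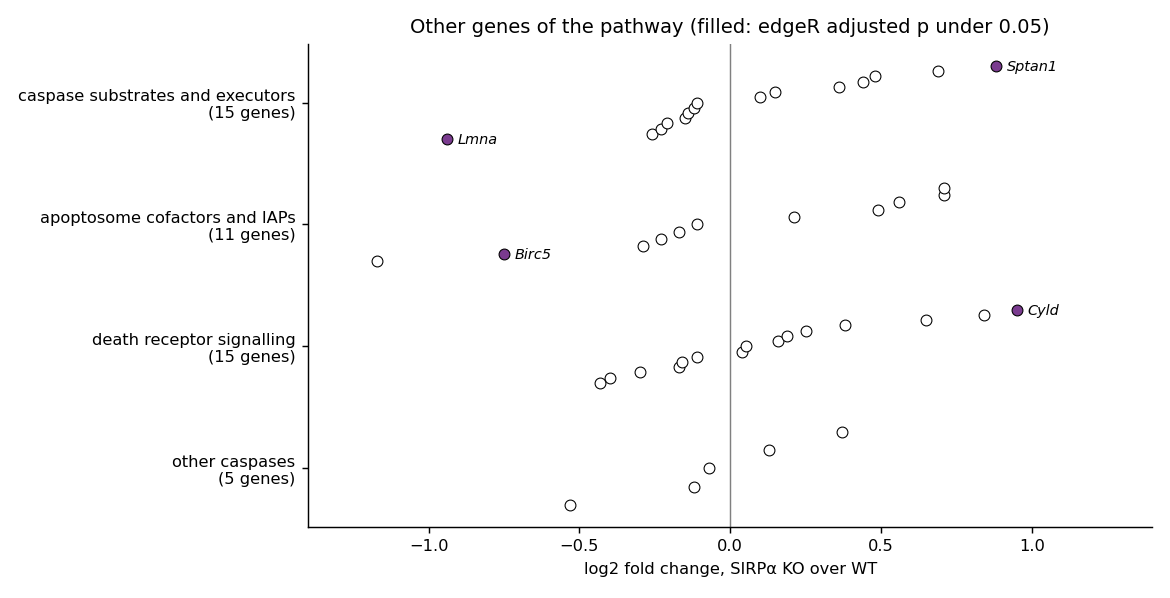
Log2 fold changes of SIRPα KO over WT (x axis) for the 46 tested genes of the list in 4 groups (y axis), with filled points for an adjusted p under 0.05 in edgeR's quasi-likelihood test. Cyld and Sptan1 lie to the right at 0.95 and 0.88, Birc5 and Lmna to the left at -0.75 and -0.94, and the open points did not pass.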

How the data were processed

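The data were 6 bulk RNAseq libraries of cultured lung ILC2s. The authors deposited estimated counts per gene for each library, made in Partek from STAR alignments to mm10 (GENCODE M21). The submitters' processing notes give Partek 10.0 and STAR 2.7.8, and the study's methods name other versions. The use of strand is not given in the sources used here. The unit was recorded for 112 genes by name, and the other 17719 hold the same unit. No gene had a total under 10 reads.

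Counts were rounded to whole numbers (56.9% to 60.7% were whole). Genes were kept by filterByExpr in edgeR 4.0.16 (10 reads in a library of median size, 15 in total), scaled (TMM) and compared by genotype with its quasi-likelihood test (R 4.3.3), with Benjamini-Hochberg adjustment over 13623 genes and a threshold of 0.05. Standard errors came from the F statistic. Biological variation between libraries (edgeR's coefficient) was 38% for WT and 15.2% for SIRPα KO. Nothing in the labels says that the 3 libraries of a group came from separate animals, and p values measure the spread between libraries. CPM were computed from the deposited counts and TMM-scaled library totals.

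Symbols were matched to GENCODE M21 directly for 17400 genes and through synonyms for 214, and 217 were not matched. Length is that of the longest transcript. The correction fitted splines with 5 degrees of freedom for length and GC content over 9049 genes outside the lists and used them as an offset, and 99.1% of tested genes had both values. No member matched another gene's transcript at 95% identity or more over 50% or more of its length (BLAST+ 2.17.0). Promoters from RefSeq (GRCm38.p6) were matched by symbol for all 8 members, with 3 windows for Xiap. Ratios used a pseudocount of 0.5. A count of 0 was read as at most 3 reads, which covers counting error only.

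The members, the list of 47 other genes and the marker lists were chosen with earlier results of these data known. The text names all members, 6 list genes whatever their result, each list gene with an adjusted p under 0.05 and the list gene or member most like each member. The single marker genes, Gm37760 and Gm9845 were named after their values were seen. Results that the naming rule also covers are in part not reported here. Alternatives were DESeq2 1.42.0, its size factors and upper quartile factors in edgeR, no filter, a replicate block, libraries of one code summed, the correction, and leaving out each library. Same-numbered libraries had correlations of -0.14, 0.18 and 0.031 over 9146 genes and were not treated as pairs. The procedures were tested on simulated data. Figures were drawn with matplotlib 3.10.9.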

Additional observations from a re-analysis of the deposited data

How the results depend on the processing

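Apaf1 kept its direction in all 13 alternatives, with log2 fold changes of 0.65 to 1.26 and adjusted p of 9.06e-06 to 0.13, and Casp6 likewise, at -1.13 to -0.77 and 0.000210 to 0.14. Both lost the threshold in 4: with libraries of one code summed (1.26 and -0.88) and without any one SIRPα KO library, the leave-one-out ranges being 0.96 to 1.26 for Apaf1 and -0.95 to -0.77 for Casp6. In each of these 4 edgeR called no member in either direction (0 of 7, with 2 at an unadjusted p under 0.05), against 1 higher and 1 lower otherwise. Members that never passed the threshold changed sign. With upper quartile factors, under which all genes had a median of -0.13, Fas was at -0.10, Casp8 at -0.082 and Casp9 at -0.068. With the correction for length and GC content Casp8 was at -0.082, Cflar at -0.28, Casp9 at -0.054 and the log2 ratio of Cflar to Casp8 at -0.20. The correction left the log2 ratio of Apaf1 to Casp9 at 0.67 and that of Xiap to Casp9 at -0.60, both with their sign unchanged. Leaving out libraries gave -0.14 to 0.15 for Fas, -0.018 to 0.059 for Casp8, 0.13 to 0.40 for Cflar, -0.16 to 0.38 for Casp9, -0.18 to 0.12 for Xiap and -0.55 to 0.24 for the ratio of Xiap to Casp9. The list of 46 had 2 genes higher and 2 lower, and 8 and 5 with DESeq2, 6 higher with DESeq2 size factors in edgeR, 1 higher with the correction and 0 and 0 with codes summed, with leave-one-out ranges of 0 to 6 and 0 to 5. All genes called were 809 higher and 791 lower, and 1687 and 1431 with DESeq2, 9 and 1 with codes summed, 527 lower with no filter on low counts and 449 lower with the replicate block, with leave-one-out ranges of 11 to 1464 and 5 to 1142. Calls over all genes rose to 2309 and 2606 without WT replicate 2 or 3 and fell to 16, 17 and 17 without SIRPα KO replicate 1, 2 or 3. The cause of these changes was not tested. With the replicate block, Apaf1 had an adjusted p of 0.0180 and Casp6 one of 0.0488, and no call of a member changed. Of the 6 libraries, 3 correlated best with the library of their own number in the other group. Depth limits Fasl, whose counts could not be tested, and the intervals of Xiap and Casp9 are wide.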

Other observations

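For each member, the gene whose level over the 6 libraries was most like its own was read among the other members and the list genes tested, 52 candidates each. The likeness is Pearson's r of log2 CPM, given as a description over libraries that share a genotype difference and, in part, a code. Apaf1 was most like Sptan1 (r = 0.99) and Casp6 most like Lmna (r = 0.97), each pair being one of genes called in the same direction. Cflar was most like Dffa (r = 0.96), which encodes the inhibitor of a DNase that caspases release, and Dffa stood at 27.3, 41.9 and 28.4 CPM in WT and 42.6, 44.3 and 37.8 CPM in SIRPα KO, with WT replicate 2 apart from the other WT libraries as it was for Cflar. Xiap was most like Diablo (r = 0.86), Casp8 most like Faf1 (r = 0.81), Casp9 most like Casp2 (r = 0.77) and Fas most like Panx1 (r = 0.73). Casp2 was at 69.9, 51.5 and 32.4 CPM in WT and 64.5, 71.6 and 62.3 CPM in SIRPα KO, with WT replicate 1 highest and WT replicate 3 lowest among the WT libraries, the order seen for Casp9.

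Between libraries of one code, members differed by up to 1.31-fold for Fas, 1.08-fold for Casp8, 1.32-fold for Cflar, 1.39-fold for Apaf1, 1.11-fold for Casp6 and 1.26-fold for Xiap. The 1.39-fold for Apaf1 was between SIRPα KO replicates 2 and 3. Its difference between genotypes was 2.17-fold, and 1.57-fold once length and GC content were corrected for. Libraries of one code may come from one sample, so the 1.39-fold need not show the spread between samples.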
